A study of Mus musculus with 12 samples.

Results

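The messenger RNA of p53 and of genes it is known to switch on was compared between lung tumours without and with Dnmt3a, a de novo DNA methyltransferase. The list held 34 genes: Trp53 itself, 4 genes of its feedback control, 8 of cell cycle arrest, 12 of apoptosis, 4 of DNA repair and 5 with other outputs. A total of 60 of the 41174 probes on the arrays belonged to them. The gene names in the array files matched 33 of the 34, and the remaining gene, Aen, which those files call Isg20l1, was matched through its RefSeq accession. All 34 were measured well enough to be tested, among 20497 genes in all.

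The tumours came from C57/129 mice that carried a K-ras LSL-G12D allele, a mutant oncogene kept silent by a stop cassette. Cre recombinase was delivered by adenovirus to the airways at 6 to 12 weeks of age, which gave lung cells with the active K-ras G12D allele in both groups. In the animals labelled KO the conditional Dnmt3a alleles were removed by the same Cre, and the animals labelled WT were wild type at Dnmt3a. Cells that the virus did not reach kept their alleles, and the frozen tumour pieces also hold host vessels, blood and connective tissue. In bulk tissue of this kind, fewer cells of a type and less RNA per cell cannot be told apart. On each of 12 two-colour arrays a KO tumour was set against a WT tumour. Cy5 marked the KO RNA on 6 arrays and Cy3 on 6. By age and sex the arrays fall into 4 sets, called pairs here; the age unit is missing from the labels. Pair A (replicates 1 to 4) set a KO male of age 47.7 against a WT male of age 42.6. Pair B (replicates 5 to 8) set a KO male of age 27 against a WT male of age 41.3. Pair C (replicates 9 and 10) set a KO male of age 27 against a WT female of age 47.6, and pair D (replicates 11 and 12) a KO male of age 29.1 against a WT male of age 37.3. Nothing in the labels tells whether the animals differed between arrays of the same pair. The p-values therefore measure the spread between these samples only, which may be technical. Pairs B and C may share a KO animal. The KO animal was the younger one in pairs B, C and D, so genotype and age cannot be fully told apart.

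p53 is a transcription factor that is made constantly and destroyed quickly, because Mdm2, a ubiquitin ligase and itself a p53 target, marks it for degradation. DNA damage or oncogene signalling stabilises it, and it then binds its response elements and raises genes that stop the cell cycle, trigger apoptosis, repair DNA and close the feedback loop. In lung tumours driven by mutant K-ras, p53 is known as a brake on progression.

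Pairs A, B and C with D lay on 3 slides. Slides 1 and 2 had 81.6% to 89.6% of probes well above background and slide 3 had 57.6% to 71.3%, with 0 probes saturated. Dnmt3a itself, at its brightest probe, fell by 0.21 ± 0.046 on the log2 scale (SE, n = 12 arrays, limma adjusted p = 0.0212) and was lower in KO RNA on 12 of 12 arrays. The position of that probe relative to the deleted exons was not analysed here. Replicate 11 stood apart in its markers of airway cells. The median log2 ratio of 3 club cell markers was -5.82 there and that of 3 ciliated cell markers -3.91, against -1.89 to 1.85 and -0.36 to 1.79 on the other arrays. Over all arrays the highest summed club signal, on a linear scale, was 873118 in WT RNA (median 59828) and 139721 in KO RNA (median 60249). The highest ciliated sum was 19847 in WT RNA (median 975) and 1854 in KO RNA (median 1336).

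Of the 34 genes, 7 were lower in KO tumours at a limma adjusted p under 0.05, called lower here, and 0 were higher. The share called lower among all genes tested was 3.78% and the share called higher 3.38%, against 20.6% and 0 in the list. The members and the gene lists used below were chosen with earlier results of these data known. Contrasts of their shares with those of all genes, here and below, are therefore no independent test. At an unadjusted p under 0.05, 11 of the 34 were lower and 1, Xpc, was higher, where 11.4% of all genes were lower and 11.1% higher. The 7 were Pmaip1, Cdkn1a, Phlda3, Plk3, Cd82, Sesn2 and Sesn1, in order of the size of the ratio. Across the list, 22 genes had a ratio below 0, and the median was -0.14 on the log2 scale against -0.0056 over all genes. The median of the 34 genes was below 0 on 11 of 12 arrays, between -0.32 and 0.058. Pmaip1 was 2.69-fold lower, Cdkn1a 1.70-fold and the other 5 between 1.23-fold and 1.43-fold. The count depended on the processing and the arrays: 1 gene was lower with median centring, 1 over pair means (n = 4), 2 without pair A and 0 within any single slide, against 6 in pairs A and B alone. With the local backgrounds as deposited 6 were lower, and the split over all genes moved from 774 lower and 693 higher to 514 lower and 767 higher.

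**Figure D1:**
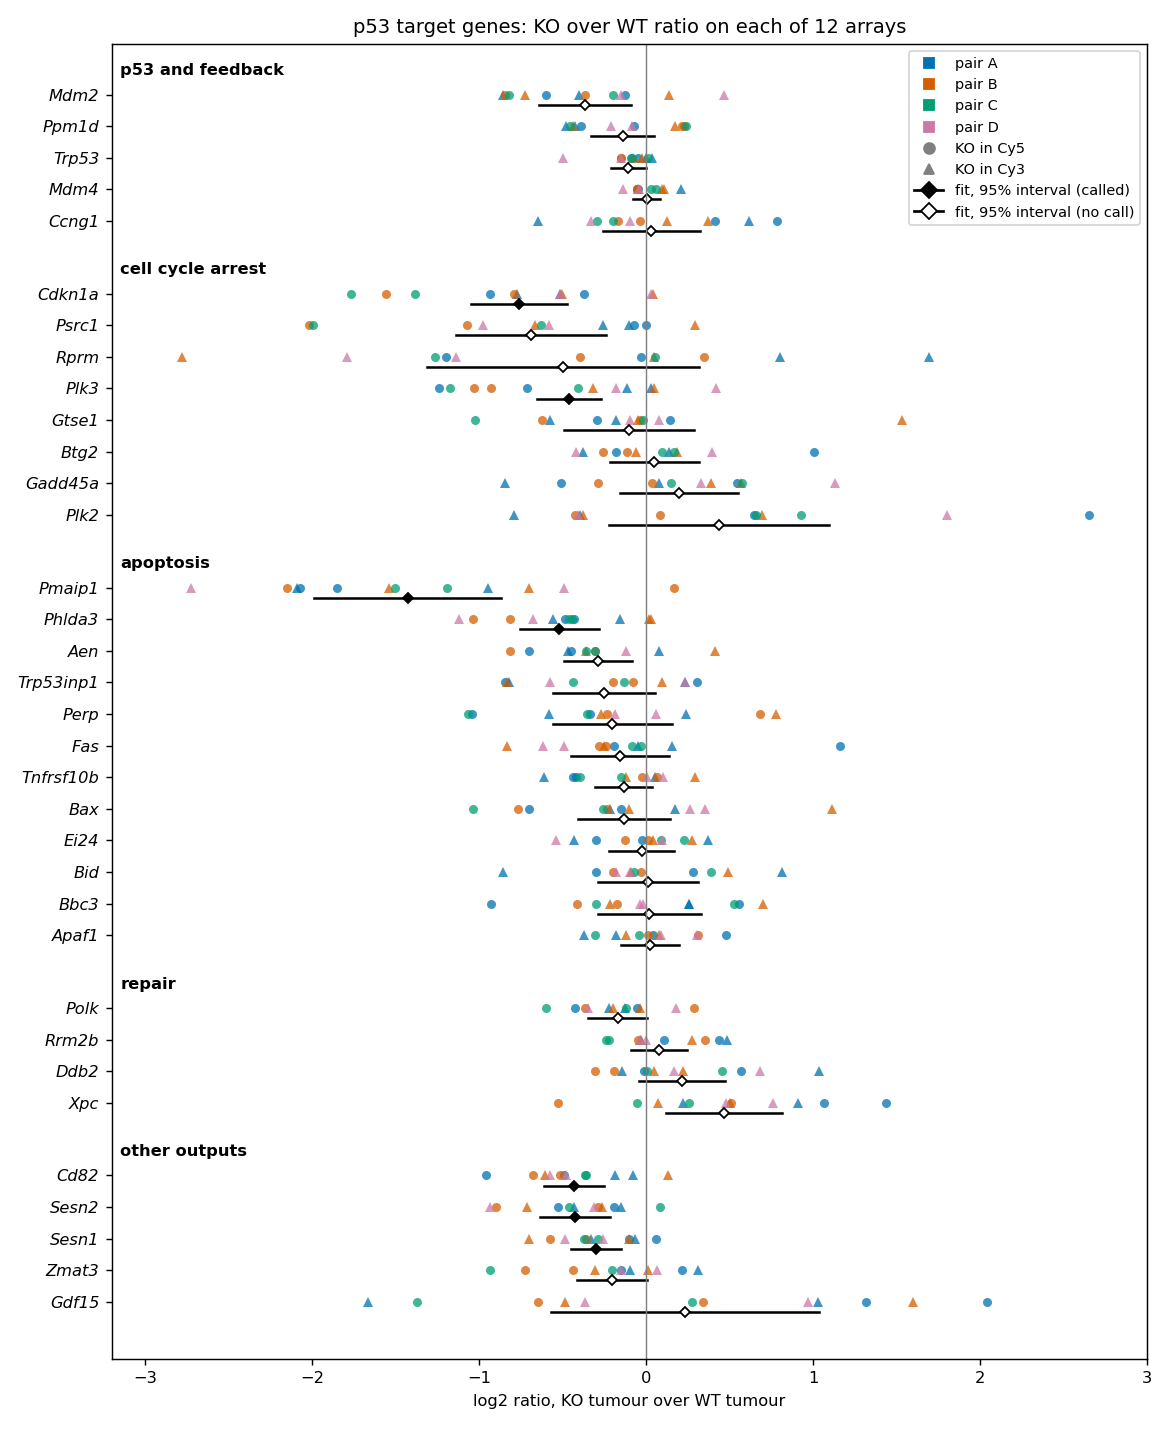
Log2 ratio of KO over WT tumour (x axis) for each of the 34 p53 target genes (rows, grouped by role) on 12 arrays, coloured by pair, with circles for KO RNA in Cy5 and triangles for KO RNA in Cy3. Black diamonds and bars are the fitted ratio and its 95% interval, filled for the 7 genes called lower, from Pmaip1 at -1.43 to Sesn1 at -0.30.

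**Figure D2:**
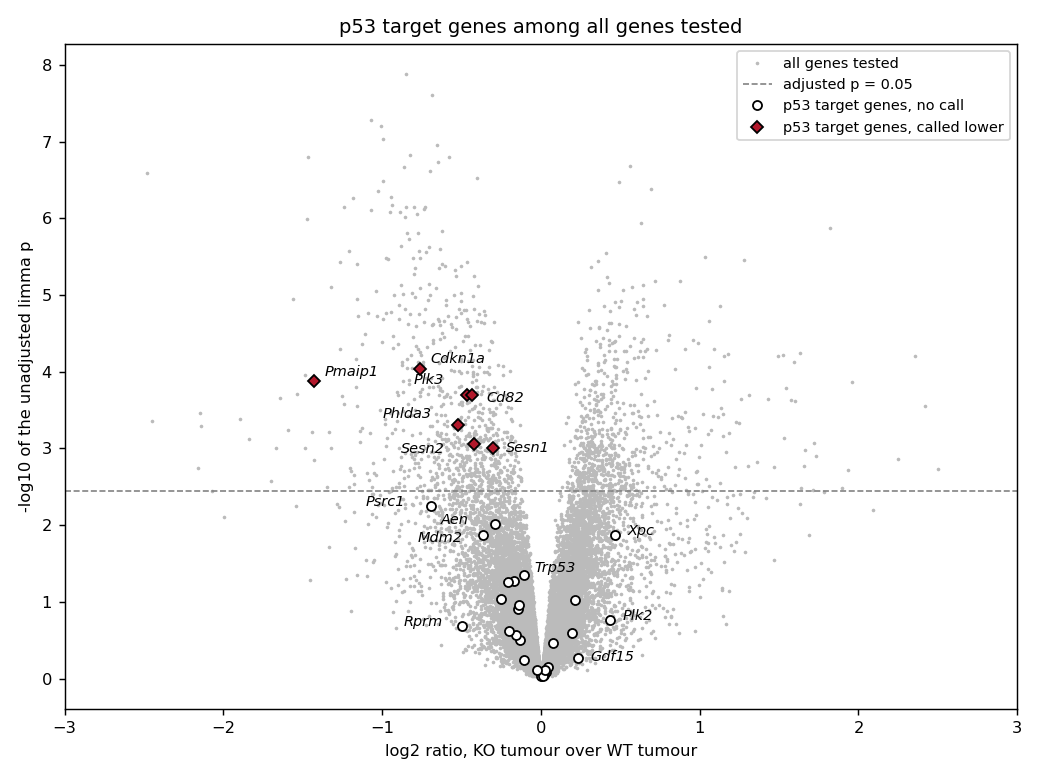
Log2 ratio of KO over WT tumour (x axis) against the -log10 of the unadjusted limma p (y axis) for 20497 genes in grey, with the 34 p53 target genes on top. The 7 filled diamonds, all left of 0, lie above the dashed line of adjusted p = 0.05, and no member lies above it on the right.

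Of the 8 genes of cell cycle arrest, 2 were called lower and 0 higher, with a median of -0.28. Cdkn1a encodes p21, the inhibitor of cyclin-dependent kinases through which p53 halts the cycle. Its log2 ratio was -1.77 on the lowest array, -0.65 at the median and 0.040 on the highest. It lay below 0 on 10 of 12 arrays, the exceptions being replicates 6 and 12. The fit gave -0.76 ± 0.13 (SE, n = 12 arrays, limma adjusted p = 0.00696). The KO signal of Cdkn1a ran from 9.55 over a median of 10.24 to 11.44 and the WT signal from 9.60 over 11.18 to 11.80, both as normalised log2 signal, so the ranges overlapped. In pair C the KO arrays were at 9.55 and 9.61 and the WT signals at 10.94 and 11.38. In pair D the KO signals were 9.84 and 9.63 and the WT signals 10.35 and 9.60. The Cdkn1a ratio averaged -1.14 over the arrays with KO RNA in Cy5 and -0.37 over those with KO RNA in Cy3. Its dye term was -0.37 (limma adjusted p = 0.101).

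Plk3, a polo-like kinase of the stress response, had ratios of -1.24, -0.37 and 0.42 on the lowest, median and highest array and lay below 0 on 9 of 12. The fit gave -0.46 ± 0.087 (SE, n = 12 arrays, limma adjusted p = 0.0111). Plk3 was the only member with a dye term past the threshold (-0.45, limma adjusted p = 0.0116), against 953 of all genes. Its ratio averaged -0.92 with KO RNA in Cy5 and -0.022 with KO RNA in Cy3. All 6 arrays of the first kind lay below 0 and 3 of the 6 of the second. Without the dye term the call ended (-0.46, limma adjusted p = 0.112).

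Psrc1, a spindle protein, stood near Cdkn1a but varied more over the arrays. Its ratios were -2.02, -0.61 and 0.29 on the lowest, median and highest array, and the fit gave -0.69 ± 0.21 (SE, n = 12 arrays, limma adjusted p = 0.0641). Its measured ratio averaged -0.11 in pair A, -0.87 in B, -1.31 in C and -0.78 in D. It passed the threshold with the 12 arrays taken as independent (limma adjusted p = 0.0426). Rprm (Reprimo, an inhibitor of mitotic entry) spread further than any other member, from -2.78 on replicate 6 to 1.69 on replicate 4, with an SD of 1.22 over arrays. Plk2, the paralog of Plk3, ranged from -0.79 to 2.65 around 0.44 ± 0.30 (SE). Gadd45a, which binds cell cycle kinases and repair proteins, was at 0.20 ± 0.16, the antiproliferative Btg2 at 0.047 ± 0.12 and Gtse1, a mitotic protein that restrains p53, at -0.10 ± 0.18. None of these passed the test.

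Of the 12 genes of apoptosis, 2 were called lower and 0 higher, with a median of -0.15. Pmaip1 encodes Noxa, a BH3-only protein that frees the mitochondrial death machinery by binding Mcl1. It had the largest ratio of the list. Its log2 ratio was -2.72 on the lowest array, -1.52 at the median and 0.16 on the highest, and only replicate 5 lay above 0. The fit gave -1.43 ± 0.26 (SE, n = 12 arrays, limma adjusted p = 0.00872), with a 95% interval of -1.99 to -0.87. The KO signal ran from 8.59 over a median of 9.32 to 10.35 and the WT signal from 9.85 over 10.75 to 11.82. The ranges overlapped between 9.85 and 10.35, with the KO signals of replicates 5 and 8 above the lowest WT signals. The measured ratio averaged -1.74, -1.06, -1.35 and -1.61 in pairs A to D. The 2 arrays of pair D read -0.49 and -2.72. Its dye term was -0.017, and the ratio averaged -1.44 with KO RNA in Cy5 and -1.42 with KO RNA in Cy3.

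Phlda3, a small membrane-binding protein that blocks Akt, had ratios of -1.12, -0.47 and 0.030 on the lowest, median and highest array. The fit gave -0.52 ± 0.11 (SE, n = 12 arrays, limma adjusted p = 0.0188). Replicates 6 and 8 of pair B stood at 0.02 and 0.03, and the other 10 arrays lay below 0. Its KO signals lay between 12.51 and 14.01 and its WT signals between 13.19 and 14.50, so the ranges overlapped. The highest WT signals were those of replicates 1 and 4 in pair A, which also had the highest KO signals.

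The other 10 genes of apoptosis did not pass the test. Aen, an apoptosis-enhancing nuclease, came nearest at -0.29 ± 0.092 (SE, n = 11 arrays, limma adjusted p = 0.0877). Of its 11 measured arrays, 9 lay below 0. It passed the threshold without replicate 6 (-0.35, limma adjusted p = 0.0320). That array held the highest Aen ratio, and with any other single array left out Aen did not pass. Bbc3 (Puma), another BH3-only protein, stood at 0.018 ± 0.14 with a 95% interval of -0.29 to 0.33. The pore-forming Bax was at -0.13 ± 0.13 and differed between orientations, at -0.53 with KO RNA in Cy5 and 0.26 with KO RNA in Cy3 (dye term limma adjusted p = 0.0750). The BH3-only linker Bid was at 0.011 ± 0.14, the apoptosome scaffold Apaf1 at 0.023 ± 0.079 and the endoplasmic reticulum protein Ei24 at -0.027 ± 0.089. The death receptors Fas (-0.16 ± 0.13) and Tnfrsf10b (-0.14 ± 0.079), the junction protein Perp (-0.20 ± 0.16) and the stress cofactor Trp53inp1 (-0.25 ± 0.14) lay below 0 without a call. The intervals of these 10 genes leave room for moderate changes, the widest being those of Perp (-0.56 to 0.15) and Bbc3.

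Of the 5 genes with other outputs, 3 were called lower, with a median of -0.30. Cd82, a tetraspanin of the cell surface that restrains migration, had ratios of -0.96, -0.49 and 0.13 on the lowest, median and highest array. It lay below 0 on 11 of 12 arrays, and the fit gave -0.43 ± 0.082 (SE, n = 12 arrays, limma adjusted p = 0.0112). The sestrins Sesn1 and Sesn2 are stress proteins that restrain mTORC1. Sesn2 had ratios of -0.94, -0.37 and 0.082 on the lowest, median and highest array, and lay above 0 on replicate 10 only. The fit gave -0.43 ± 0.096 (SE, n = 12 arrays, limma adjusted p = 0.0249). Sesn1 had ratios of -0.70, -0.31 and 0.056 and lay above 0 on replicate 3 only. The fit gave -0.30 ± 0.070 (SE, n = 12 arrays, limma adjusted p = 0.0265). The measured Sesn1 ratio averaged -0.11 in pair A, against -0.43, -0.33 and -0.37 in pairs B, C and D. Zmat3, an RNA-binding protein, was at -0.21 ± 0.097 without a call. Gdf15, a secreted stress hormone, ranged from -1.67 on replicate 4 to 2.04 on replicate 1, both in pair A, around 0.23 ± 0.37.

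The Sesn1 call ended without replicate 2 (-0.30, limma adjusted p = 0.0512), without replicate 9 (-0.29, adjusted p = 0.0513) and without replicate 12 (-0.28, adjusted p = 0.0598). The Sesn2 call ended without replicate 1 (-0.41, limma adjusted p = 0.0502). The other 5 genes kept their call with each single array left out. Cdkn1a alone kept its call with each pair left out. Without pair A, the calls of Pmaip1 (-1.28), Phlda3 (-0.57), Plk3 (-0.44), Cd82 (-0.43) and Sesn2 (-0.47) ended, with limma adjusted p between 0.064 and 0.102. With median centring in place of loess, all calls but that of Pmaip1 ended.

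**Figure D3:**
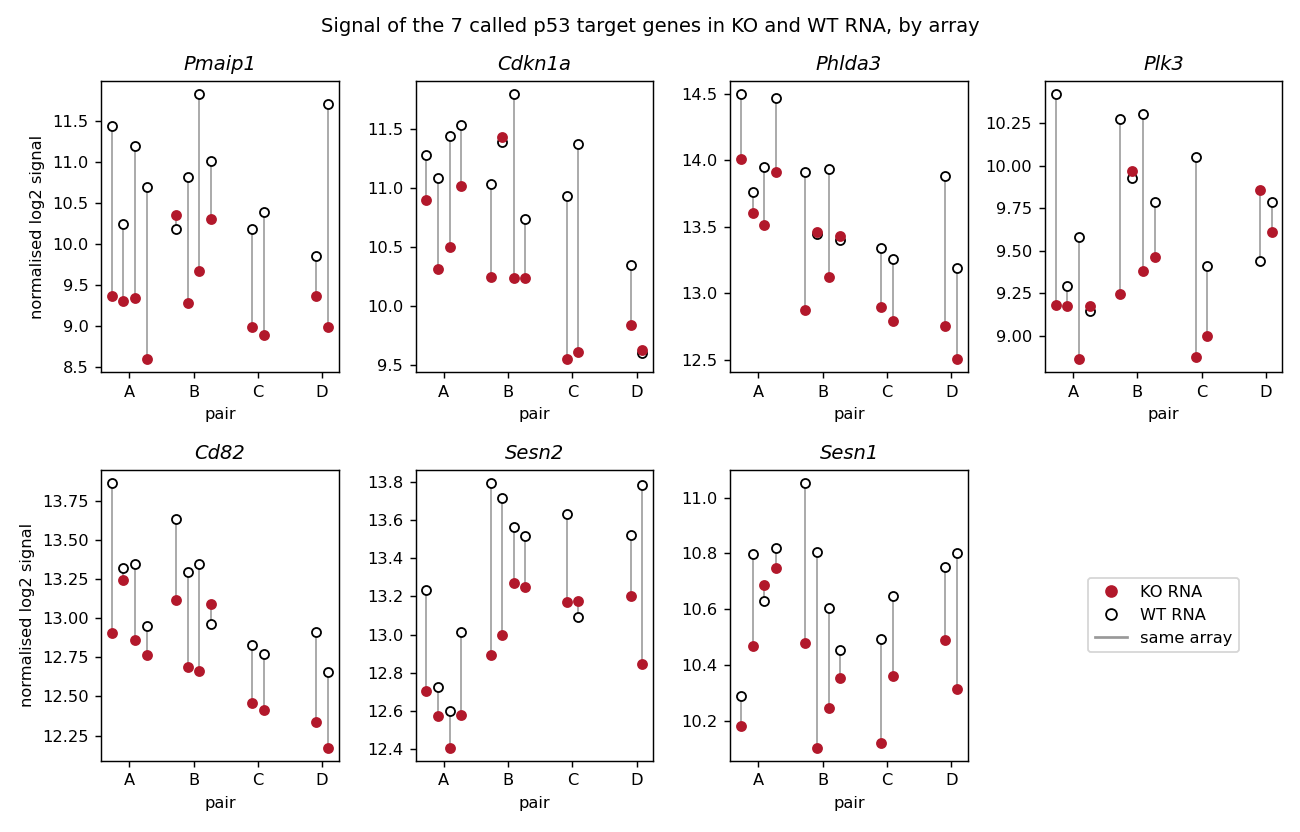
Normalised log2 signal (y axis) of the 7 called genes in KO RNA (filled) and WT RNA (open) on each array, by pair (x axis), with a line joining the signals of one array. The filled point lies below the open one on most arrays, as for Pmaip1 on 11 of 12, while the ranges of KO and WT signal overlap for each gene.

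None of the 5 genes around p53 itself passed the test. Trp53 stood at -0.11 ± 0.048 (SE, n = 12 arrays, limma adjusted p = 0.210) at its brighter probe, between -0.50 and 0.032, with a 95% interval of -0.21 to -0.0028. The other Trp53 probe went the opposite way, at 0.24 ± 0.074 (limma over all kept probes, adjusted p = 0.0756), above 0 on 10 of 12 arrays. The transcript level of Trp53 therefore has no settled direction here, and neither probe says anything of the protein. Mdm2, the ubiquitin ligase that p53 induces against itself, had ratios of -0.86, -0.39 and 0.47 on the lowest, median and highest array and fitted at -0.37 ± 0.13 (SE, n = 12 arrays, limma adjusted p = 0.105). Its measured ratio averaged -0.50, -0.45 and -0.51 in pairs A, B and C and 0.16 in pair D. Mdm2 passed the threshold without replicate 11 (-0.44, limma adjusted p = 0.0399). That array held the highest Mdm2 ratio, and with any other single array left out Mdm2 did not pass. The dimmer Mdm2 probe was at -0.13 ± 0.11. Mdm4, the partner that masks the activating domain of p53, varied least of all members, with ratios from -0.14 to 0.21 around 0.0032 ± 0.037. The phosphatase Ppm1d (Wip1), which switches off damage signalling, was at -0.14 ± 0.086, and cyclin G1 (Ccng1) at 0.031 ± 0.13.

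None of the 4 repair genes passed the test, and 3 of them had ratios above 0, with a median of 0.15. Xpc, which recognises damage in nucleotide excision repair, had ratios of -0.53, 0.49 and 1.44 on the lowest, median and highest array, above 0 on 10 of 12. The fit gave 0.46 ± 0.16 (SE, n = 12 arrays, limma adjusted p = 0.104), and its other probe gave 0.50 ± 0.14. Its measured ratio averaged 0.91 in pair A and 0.62 in pair D, against 0.14 in pair B and 0.10 in pair C. Without replicate 5 the Xpc ratio passed the threshold (0.56, limma adjusted p = 0.0293). That array held the lowest Xpc ratio, and with any other single array left out Xpc did not pass. Ddb2, which finds ultraviolet lesions for the same pathway, was at 0.22 ± 0.12. Rrm2b, the p53-induced subunit that supplies nucleotides for repair, was at 0.075 ± 0.077, and Polk, a polymerase that reads past lesions, at -0.17 ± 0.080.

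Several probes were kept for 17 of the 34 genes, and 5 of the 7 called genes had a single probe, so no second probe bears on those calls. Among the called genes, the dimmer Sesn2 probe stood at -0.069 ± 0.055 (limma over all kept probes, adjusted p = 0.534). It was well above background for KO and WT RNA on 12 of 12 arrays. Its mean log2 signal was 10.9, against 13.1 for the brighter Sesn2 probe. Both dimmer Sesn1 probes lay below 0 without a call, at -0.15 ± 0.060 and -0.038 ± 0.044. All 3 Psrc1 probes lay below 0 on 10 of 12 arrays, at -0.69, -0.37 and -0.20. Both Rprm probes (-0.50 and -0.57) and both Trp53inp1 probes (-0.25 and -0.38) lay near each other. The Ccng1 probes lay at 0.031 and -0.29. Probes of both signs were seen for 4 genes, and another Ppm1d probe was not well above background on any array.

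**Figure D4:**
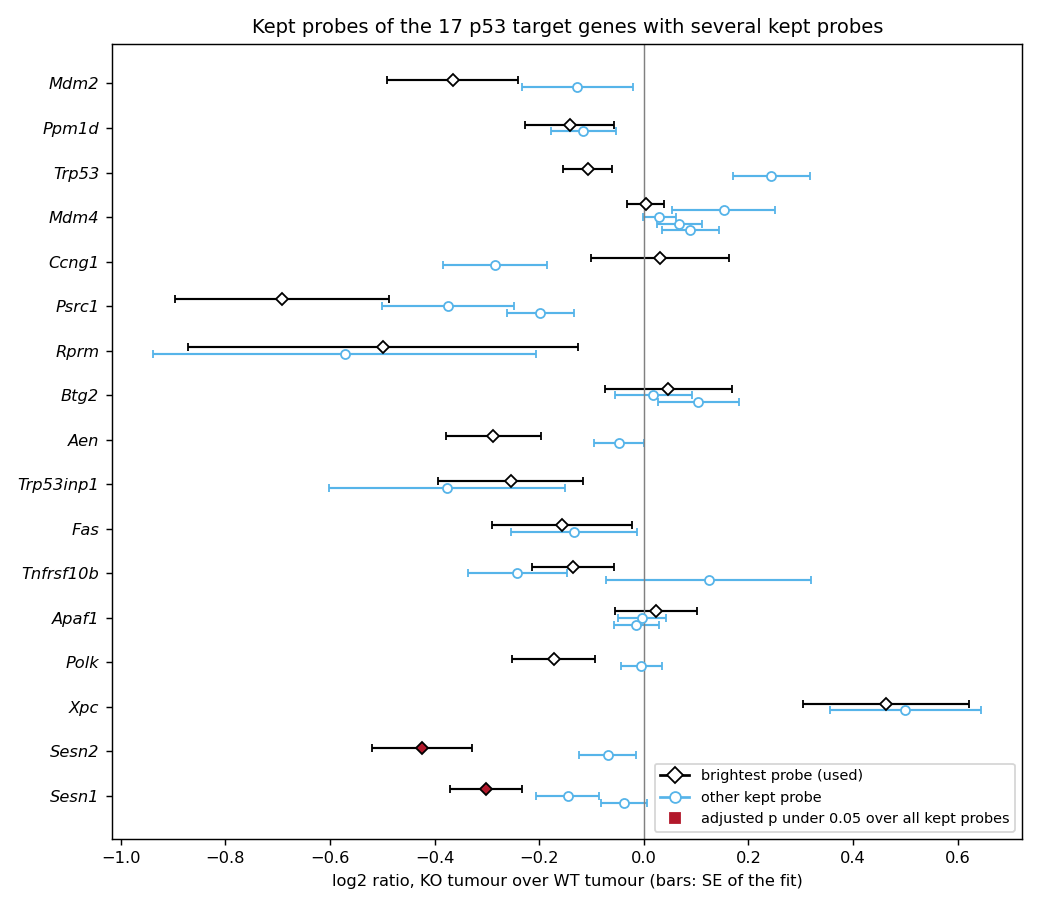
Log2 ratio of KO over WT tumour (x axis) with the SE of the fit for each kept probe of the 17 p53 target genes that have several, with a diamond for the brightest probe, which represents the gene, and circles for the others. Only the brightest probes of Sesn1 and Sesn2 pass the threshold, and the Trp53 probes lie on opposite sides of 0 at -0.11 and 0.24.

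No member differed between the pairs at an adjusted p under 0.05 by limma's F test, against 0.343% of all genes, and 0 members had an unadjusted p under 0.05. The lowest unadjusted p was that of Phlda3 (limma p = 0.0554). Its ratios fitted with the dye term, which the test compares, were -0.41, -0.45, -0.19 and -1.16 in pairs A to D. The measured Phlda3 ratio averaged -0.90 in pair D (-1.12 and -0.68) and -0.41, -0.45 and -0.45 in pairs A, B and C. With 2 arrays in pair C and in pair D, each in a single dye orientation, a difference between pairs was hard to detect. All 4 pair ratios, fitted with the dye term, lay below 0 for 11 members, 32.4% of them, against 12.4% of all genes. These were the 7 called genes with Psrc1, Aen, Polk and Trp53inp1. For Plk3 this rests on the dye term. Its measured ratio averaged 0.12 in pair D (0.42 and -0.18), where Cy3 marked the KO RNA, and its fitted ratio there was -0.33. All 4 lay above 0 for Xpc alone, and the signs were mixed for 22 members.

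p53 acts through a DNA response element made of a tandem pair of similar decamers. RefSeq windows of 300 bases (GRCm38.p6, from 250 bases before to 50 after a gene start) were found for 26 of the 34 genes, in 39 windows. The p53 consensus decamer, which reads the same on both strands, was matched in 13 windows of 12 members. That is 33.3% of the members' windows, against 8.36% of the 32851 windows of all genes. A pair of decamers no more than 13 bases apart occurred in 1 window of a member and in 24 windows (0.0731%) overall. That window belongs to the upstream start of the 2 found for Cdkn1a, with the first decamer at position -73 from that start and a spacer of 12 bases. Only exact matches were counted. The decamer that directly follows the second match departs from the consensus at its first base, so it was left out. The pair with the spacer of 12 bases is therefore not shown to be the site that p53 uses. Among the called genes with a window, Sesn1 had 1 decamer at position -173 of its second start, and Plk3, Phlda3, Sesn2 and Cd82 had none in these windows. Mdm2, lower without a call, had 1 decamer at position -186. The windows of Cdkn1a and Sesn1 are shown as called genes with a decamer and that of Mdm2 as a feedback gene with a decamer. Matches to the decamer are in capitals. Sequence outside these windows was not searched, so p53 sites elsewhere in a gene, Mdm2 included, would be missed. The median number of CG pairs was 21 in a window of a member and 7 in a window of any gene, with 2 in the Cdkn1a window shown, 31 in that of Sesn1 and 35 in that of Mdm2. The other Cdkn1a window (23 CG pairs) and the other Sesn1 window (24 CG pairs) held 0 decamers. DNA methylation was not measured on these arrays. A match is a sequence feature and says nothing about binding in these tumours.
Cdkn1a, chr17:29090729-29091028, plus strand: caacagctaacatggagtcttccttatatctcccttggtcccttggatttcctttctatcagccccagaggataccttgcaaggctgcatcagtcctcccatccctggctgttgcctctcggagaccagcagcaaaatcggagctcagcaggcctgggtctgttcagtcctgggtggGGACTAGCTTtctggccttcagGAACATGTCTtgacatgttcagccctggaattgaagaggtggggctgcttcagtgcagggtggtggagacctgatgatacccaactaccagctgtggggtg
Sesn1, chr10:41887189-41887488, plus strand: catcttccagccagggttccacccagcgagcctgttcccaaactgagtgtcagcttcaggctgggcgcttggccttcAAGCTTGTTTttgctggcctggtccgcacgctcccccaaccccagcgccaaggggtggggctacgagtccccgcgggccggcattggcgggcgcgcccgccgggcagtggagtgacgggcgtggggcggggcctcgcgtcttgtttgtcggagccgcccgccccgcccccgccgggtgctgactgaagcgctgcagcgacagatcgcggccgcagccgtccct
Mdm2, chr10:117710709-117711008, minus strand: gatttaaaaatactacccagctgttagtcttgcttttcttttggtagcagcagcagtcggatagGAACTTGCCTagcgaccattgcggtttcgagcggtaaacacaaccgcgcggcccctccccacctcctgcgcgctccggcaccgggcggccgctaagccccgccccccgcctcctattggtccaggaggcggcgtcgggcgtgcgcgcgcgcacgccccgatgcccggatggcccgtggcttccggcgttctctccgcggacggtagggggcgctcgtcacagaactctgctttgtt

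Of 29 measured kinases and modifiers upstream of p53, 1 (3.45%) was called lower and 3 (10.3%) higher, with a median of 0.038. Among all genes 3.78% were called lower and 3.38% higher. At an unadjusted p under 0.05 in limma, 4 of the 29 were lower and 7 higher, beside 11.4% and 11.1% of all genes. Usp7, which removes ubiquitin from Mdm2 and p53, fell (-0.28 ± 0.064, SE). The break sensor Mre11a (0.29 ± 0.050), the damage kinase Atm (0.18 ± 0.043) and the checkpoint kinase Chek2 (0.29 ± 0.079) rose, each by little. Of 35 other described p53 targets, 1 (2.86%) was called lower and 0 higher, no larger a share than the 3.78% and 3.38% of all genes. At an unadjusted p under 0.05 in limma, 8 were lower and 1 higher, beside 11.4% and 11.1% of all genes. The gene called lower was Dusp1, a phosphatase of stress kinases (-0.90 ± 0.14, lower on 12 of 12 arrays).

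Of 23 other BCL2 family and caspase genes, 5 (21.7%) were called lower and 1 (4.35%) higher, with a median of -0.072. Among all genes 3.78% were called lower and 3.38% higher. The BH3-only gene Bik, which promotes apoptosis, fell (-0.81 ± 0.11, SE, lower on 12 of 12 arrays). Birc3 (-0.50 ± 0.10) and Cflar (-0.34 ± 0.079), which restrain caspases, fell too, and the initiator caspase Casp2 rose (0.34 ± 0.073). The called genes of this list not named here were lower and, like Bik, promote apoptosis. With median centring 1 gene of this list was lower and 0 were higher.

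Of 20 measured cell cycle genes that p53 is known to repress through p21, 0 were called lower and 1 (5%) higher, near the 3.38% of all genes called higher. At an unadjusted p under 0.05 in limma, 0 were lower and 5 higher, beside 11.4% and 11.1% of all genes. Tyms, which makes thymidylate, was higher on 12 of 12 arrays (0.49 ± 0.048, SE, limma adjusted p = 0.000405). The mitotic cyclin Ccnb2 stood at 0.60 ± 0.17 (limma adjusted p = 0.0530), Aurkb at 0.54 ± 0.15 and Bub1 at 0.51 ± 0.15. The median of the list was 0.23, and by pair, from A to D and fitted with the dye term, it was -0.040, 0.46, 0.60 and 0.11.

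Of 8 endothelial markers, 7 were called lower, with a median of -0.74 and a median below 0 on each array (-1.36 to -0.49). Of 7 smooth muscle and pericyte markers 5 were called lower, with a median of -0.45. The summed endothelial signal lay between 8942 and 13716 in KO RNA and between 13568 and 22239 in WT RNA, on a linear scale. The smooth muscle and pericyte sum lay between 15034 and 22281 in KO RNA and between 18682 and 30205 in WT RNA. All 8 endothelial markers were well above background on all arrays. Of 4 red cell markers 2 were called lower, and their fitted median stood at -2.32 in pair A, -1.70 in C and -1.26 in D, against 0.14 in B. The red cell sum lay between 8246 and 68798 in KO RNA and between 25531 and 133261 in WT RNA. Of the 8 macrophage, 6 T cell and 5 B cell markers 0 were called, with 0 at an unadjusted p under 0.05 in limma. All 8 macrophage markers had a fitted ratio below 0, with a median of -0.21. By pair, from A to D, the macrophage median was -0.18, -0.011, -0.44 and -0.65. The T cell median was -0.080 and the B cell median -0.021. Of 7 fibroblast markers 0 were called lower and 1 higher, Lum (1.13 ± 0.30, SE, higher on 11 of 12 arrays, limma adjusted p = 0.0447). Pdgfra at -0.67 and Col1a2 at -0.49 passed an unadjusted p under 0.05 only, and the fibroblast median was -0.011. The alveolar type 2 list, which marks the usual cell of these tumours, had 1 of 6 called lower (Lamp3), 0 higher and a median of -0.16. Abca3, of the same list, went the other way without a call (0.36 ± 0.11, SE, higher on 10 of 12 arrays, limma adjusted p = 0.0783). Sftpc, the defining marker of the list, was well above background in KO and WT RNA on all 12 arrays. The part of vessel cells, of red cells, of macrophages and of age in the lower p53 targets was not tested.

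**Figure D5:**
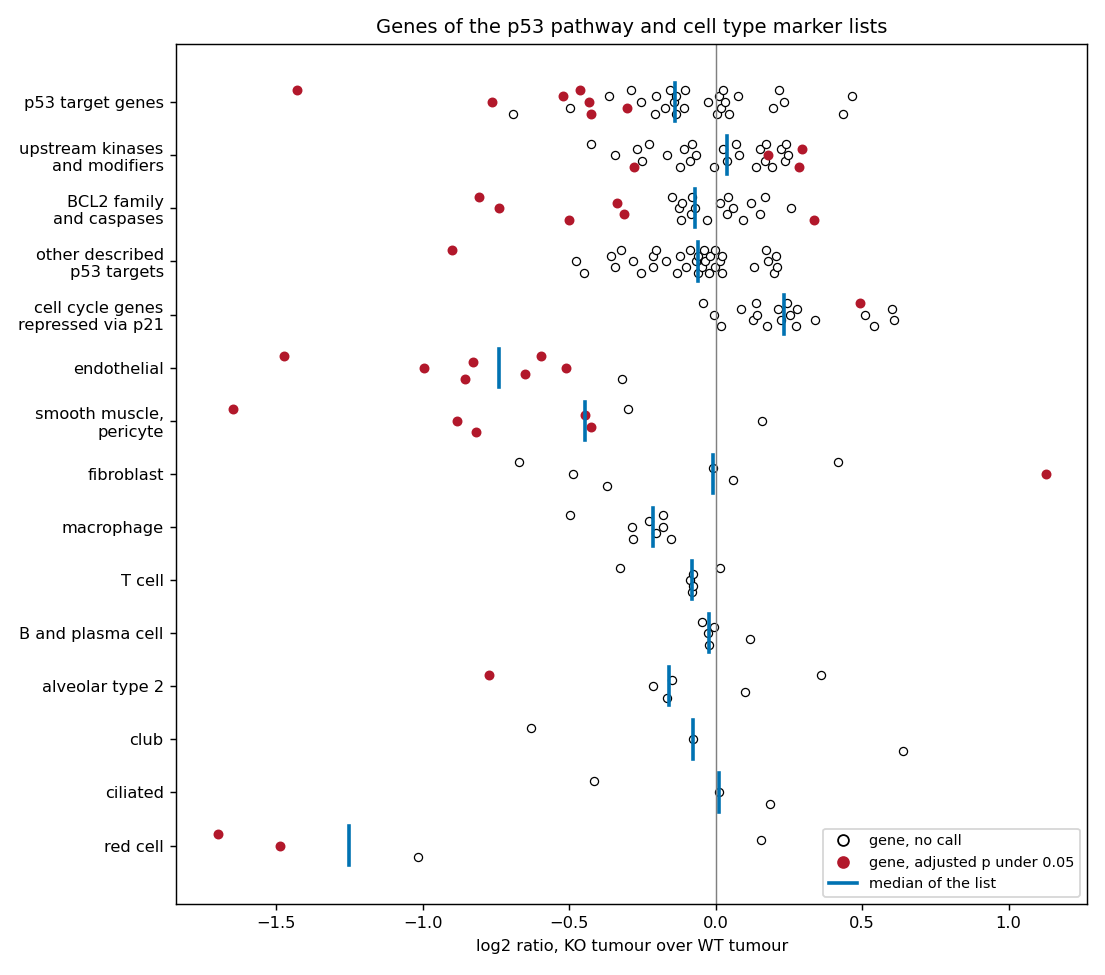
Log2 ratio of KO over WT tumour (x axis) of each gene of the p53 target list, of 4 neighbouring pathway lists and of 10 cell type marker lists (rows), filled where the adjusted p was under 0.05, with the list's median as a blue bar. The endothelial median stands at -0.74, the p53 target median at -0.14 and that of cell cycle genes repressed through p21 at 0.23.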

How the data were processed

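RNA of 12 KO and WT tumour pairings was measured on 12 two-colour Agilent arrays. Spot intensities and local backgrounds were deposited as extracted with Agilent Feature Extraction 10.1.1.1, protocol GE2-v5_10_Apr08 and array design 014868, per the file headers, and are not normalized. Deposited flags of each spot (0 or 1) give outliers, saturation and whether it was well above background. The deposited matrix holds log2 ratios of the authors, who name limma in the submitters' processing notes. Each column ran as KO over WT. Its correlation with the loess ratios made here, described below, was 0.992 to 0.999 over probes well above background for KO and WT RNA. The slope was 0.937 to 0.993 and the column median -0.011 to 0.0077.

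From the intensities, normexp (offset 50) and loess were run in limma 3.58.1 (R 4.3.3, with version 1.17.8 of data.table and 1.5.0 of statmod). Local backgrounds marked as outlying took the median of their array and dye, and outlier-flagged spots were left out. A probe was kept where well above background for KO or WT RNA on at least 6 arrays (35531 probes), and a gene is its brightest kept probe. Of the probes, 23070 were named through a RefSeq accession (GRCm38.p6), 11521 by the file (build mm7) and 6583 not at all. The limma model had a dye term and the pair as a random block, estimated on the KO over WT ratios (correlation 0.0791), with Benjamini-Hochberg adjustment over 20497 genes. In data simulated over 20497 genes with a pair correlation of 0.2, the model recovered 61% of changes of 0.5 and 93% of changes of 1. It estimated that correlation at 0.141. Of its 177 calls 23 were false, a larger share than the threshold of 0.05. The simulated correlation was higher than the 0.0791 of the real ratios, and fewer genes were changed than were called here. The share of false calls in the real data was therefore not measured. The members, the lists and the rule for named genes (each member, and at most the 4 of smallest p of each other pathway list) were chosen with earlier results of these data known. The number of arrays limits the precision.

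Alternatives covered background, centring, probe choice and filter, block, dye term, threshold, the authors' matrix, and leaving out arrays or pairs. The markers Lamp3, Abca3, Lum, Pdgfra and Col1a2 were named after their values were seen.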

Additional observations from a re-analysis of the deposited data

Results flagged for a closer look

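Each member's log2 KO over WT ratios were examined within pairs A and B, the groups of 4 arrays, which makes 68 groups. In 3 of them the gap of 1 array to the nearest other passed Dixon's 95% critical value, which chance passes in about 1 of 20 groups. Mdm4 stood at 0.21 on replicate 4 of pair A, against -0.055 to -0.047 on the other arrays of that pair. Ppm1d stood at -0.44 on replicate 6 of pair B, against 0.17 to 0.22 on the others. Fas stood at -0.84 on replicate 8 of pair B, against -0.28 to -0.24 on the others. None of these 3 genes was called with all arrays or with 1 array left out.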

How the results depend on the processing

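The main values are 7 members lower, 0 members higher and 1467 genes called, by limma. The members lower were 1 with median centring, 1 over pair means (n = 4), 2 without pair A, 4 without pair B, 0 within each of slides 1, 2 and 3 (9, 8 and 9 at an unadjusted p under 0.05), and 2 at an adjusted p under 0.01. With single arrays left out they numbered 6 to 8, and under the other settings run, such as the authors' matrix (7), 5 to 10. The members higher were 0 under each setting except without replicate 5, which gave 1 (range 0 to 1). Genes called were 359 with median centring (170 lower, 189 higher), 2219 without a block, 48 over pair means, 401, 913, 837 and 970 without pairs A, B, C and D, 867 in pairs A and B alone, 0, 1 and 0 within slides 1, 2 and 3, 601 with a trend and robust fit, 2564 at 0.1 and 337 at 0.01, and 774 to 1813 with single arrays left out. Pmaip1 kept its call under median centring and over pair means. No member that was called changed sign under a setting run. A single pair or slide has few arrays, which limits its calls. KO and WT RNA share each array, so every ratio is itself paired.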
